A study of Triticum aestivum with 24 samples.

Results

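Transport inhibitor response 1 (TIR1) loci were the transcripts listed as cut under miR393 in the degradome of wheat leaves. They were taken as the rows of the deposited target table whose miRNA name begins with miR393, and every locus so found was annotated as TIR1 or TIR1-like. This gave 5 of the 62 loci of the table, 22 of its 239 pairs of a miRNA and a cleavage position, 9 of its 92 distinct cleavage sites and 3 of its 73 miRNAs. Loci TraesCS2A01G286200 and TraesCS2B01G302900 lay on group 2 chromosomes and were annotated as TIR1-like proteins. Loci TraesCS1A01G091300, TraesCS1B01G119100 and TraesCS1D01G099900 were the group 1 homoeologues, that is, the copies of 1 gene in the A, B and D sub-genomes of hexaploid wheat, and were annotated as TIR1. No miR393 row named a locus on chromosome 2D. The table used here is shorter than the target list in the study's supplement, so loci and positions outside it, further TIR1 loci among them, were not analysed here.

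Parallel analysis of RNA ends (PARE) reads the 5′ ends of uncapped RNA fragments, and an excess of tags that start at 1 base of a transcript marks a cut there. The libraries came from leaves of cv Chinese Spring, all plants descending from 1 selfed individual, that were exposed at the boot stage to 37 °C for 5 days or kept at 18 °C in the light and 16 °C in the dark. Heat-stressed and control leaves were each taken at 0, 1 and 4 days after treatment in 4 biological replicates of 18 pooled plants, for 24 libraries in 6 groups. The table holds 1 value per miRNA and position and names no library, and whether this value sums the libraries is not stated. So neither a heat effect nor a spread between replicates can be given for the TIR1 loci. The depth behind each tag count is unknown.

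TIR1 is the F-box subunit of an SCF ubiquitin ligase and acts as an auxin receptor: auxin bridges it to Aux/IAA repressors, which are then ubiquitinated and degraded, so that auxin response factors are released. The miRNA miR393 is conserved between dicots and monocots, and in Arabidopsis it directs the cleavage of mRNAs of TIR1 and related auxin receptors. Plant miRNAs pair with their targets over nearly their whole length, and the Argonaute protein that carries them usually cuts between the bases opposite miRNA bases 10 and 11, so that the 3′ fragment begins opposite base 10.

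The 3 miR393 members listed with TIR1 were versions of 1 sequence that differed only at their ends. They are shown because these ends set which base of the miRNA faced each cut. In each of them the seed, bases 2 to 8 from the 5′ end, is in capitals.
miR393-6-5p: tTCCAAAGggatcgcattgat
miR393-4-5p: tTCCAAAGggatcgcattgatc
miR393-2-5p: tCCAAAGGgatcgcattgatc
The 22-nt miR393-4-5p began with the whole of the 21-nt miR393-6-5p and ended with the whole of the 21-nt miR393-2-5p, so 20 bases were common to all 3. miR393-6-5p and miR393-4-5p had the same seed, whereas that of miR393-2-5p was shifted by 1 base.

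All 5 loci carried the same binding site, base for base, over the 22 nt facing miR393-4-5p. It is shown first with the 18 bases that paired with all 3 miRNAs in capitals, and then with the bases at the listed cleavage positions in capitals.
TIR1 site, paired bases: agaCAATGCGATCCCTTTGGAt
TIR1 site, cleavage positions: agacaatgcgaTCcctttggat
Bases 2 to 19 of miR393-6-5p and of miR393-4-5p, and bases 1 to 18 of miR393-2-5p, formed Watson-Crick pairs with this stretch. The other bases lay at the ends: 1 G and U wobble in each miRNA, and 2 unpaired bases in miR393-6-5p and miR393-2-5p against 3 in miR393-4-5p. None (0) of the 57 loci outside miR393 had a listed site with the 18-base stretch, and the longest run shared with any of their sites was 6 bases. Only sites listed for other miRNAs were searched, and the TIR1 loci were chosen by miR393. The search therefore cannot show whether the stretch is confined to TIR1 loci.

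**Figure D1:**
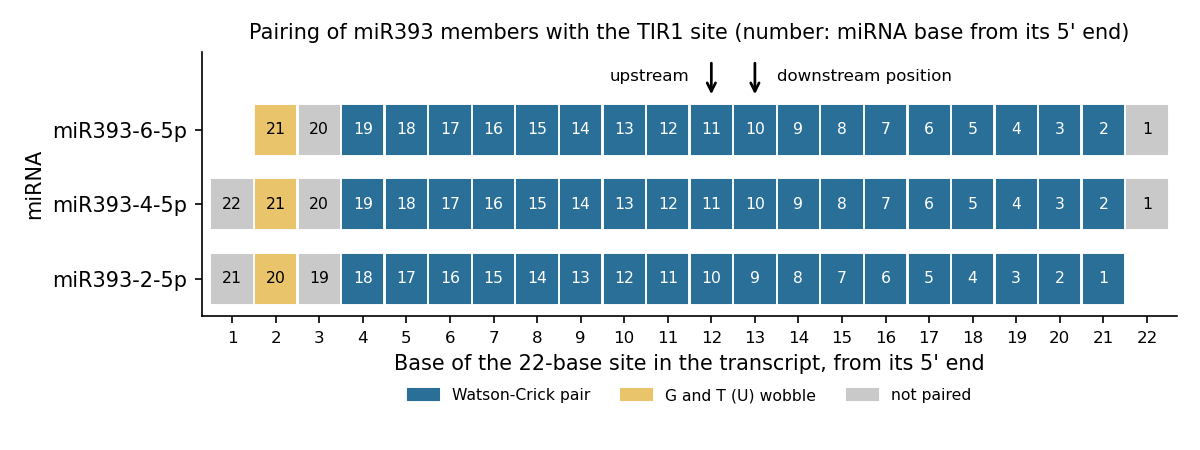
Pairing of the 3 miR393 members with the 22-base TIR1 site; the x axis counts bases of the site from its 5′ end, each row is a miRNA, numbers are miRNA bases from its 5′ end and colours give the pairing. The 18 blue bases are the same stretch of the site in every row, and the arrows mark site bases 12 and 13, the listed cleavage positions, of which the downstream one faces base 10 of miR393-6-5p and miR393-4-5p and base 9 of miR393-2-5p.

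The site lay far into the coding sequence (IWGSC RefSeq v1.0 gene models), and its place differed between loci. Opposite miR393-6-5p it spanned positions 1503 to 1523 in TraesCS2A01G286200 and in TraesCS2B01G302900. It spanned 1557 to 1577 in TraesCS1A01G091300, 1548 to 1568 in TraesCS1B01G119100 and 1581 to 1601 in TraesCS1D01G099900. The start was 9 nt further along in the 1A than in the 1B copy, 24 nt further along in the 1D than in the 1A copy, and 45 nt further along in 1B than in both group 2 loci. The study's supplementary list gives other positions for the same site in some of these transcripts, so the positions here are those of the deposited table, taken as coding sequence positions.

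Cuts were listed at adjacent bases of this site, an upstream and a downstream one, 1 nt apart. The downstream position faced base 10 of miR393-6-5p and miR393-4-5p, and all 5 loci were listed there under these miRNAs. The upstream position faced base 10 of miR393-2-5p and base 11 of the other members, and 4 of the 5 loci were listed there under all 3 miRNAs. The downstream position would face base 9 of miR393-2-5p, and the table holds 0 pairs opposite base 9 for any miRNA. miR393-2-5p was therefore listed in 4 pairs, all upstream, and miR393-4-5p and miR393-6-5p in 9 pairs each. Base 10 faced the cut in 14 of the 22 miR393 pairs and base 11 in 8, with a background of 42.3% of all 239 pairs opposite base 10. At each of the 9 sites at least 1 miR393 member placed base 10 opposite the cut (background 50.0% of the 92 sites). The same held at all 9 squamosa promoter-binding-like sites of miR156 and all 4 homeobox leucine-zipper sites of miR166. Of their pairs, 28 of 38 and 30 of 52 lay opposite base 10, so this was not particular to TIR1. In the table as a whole pairs lay opposite bases 10 to 13.

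Of the group 2 loci, TraesCS2A01G286200 had the fewest tags of the family. Its downstream position, 1514, had 4 tags beside a deposited window sum of 5 (80%, Wilson 95% interval 37.6 to 96.4). Its upstream position, 1513, had 4 tags beside a deposited window sum of 4 (100%, Wilson 95% interval 51.0 to 100). This sum leaves out the 4 tags listed 1 nt away, so the window shares given here are ratios of deposited columns and not the share of all tags near the cut. A count of 4 has an exact Poisson 95% interval of 1.09 to 10.2 tags, and it is the lowest abundance in the table, so the locus sat at the limit of listing at both positions. At TraesCS2B01G302900 the downstream position, also 1514, had 5 tags beside a window sum of 6 (83.3%, Wilson 95% interval 43.6 to 97.0), and 5 tags have a Poisson interval of 1.62 to 11.7. The upstream position of this locus had no row in the table used here and was not analysed.

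The group 1 homoeologues had the highest count of the family at the downstream position and carried identical values. TraesCS1A01G091300 (position 1568), TraesCS1B01G119100 (1559) and TraesCS1D01G099900 (1592) each had 7 tags there beside a window sum of 8 (87.5%, Wilson 95% interval 52.9 to 97.8), and the exact Poisson 95% interval of 7 tags was 2.81 to 14.4. At the upstream position (1567, 1558 and 1591) each had 5 tags beside a window sum of 6. All 5 pairs of each homoeologue were the same as those of the others in tags, window, score, category and p-value, so tags cannot be assigned to 1 of the copies, and the 3 loci count as 1 value. The group 2 loci shared 0 pairs of identical values with them or with each other. The 5 loci thus gave 3 separate sets of values. All intervals here cover counting error only, since no value per library is given. They also take tags as independent. PCR copies of a tag are not independent molecules, so the intervals may be too narrow even for counting error.

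**Figure D2:**
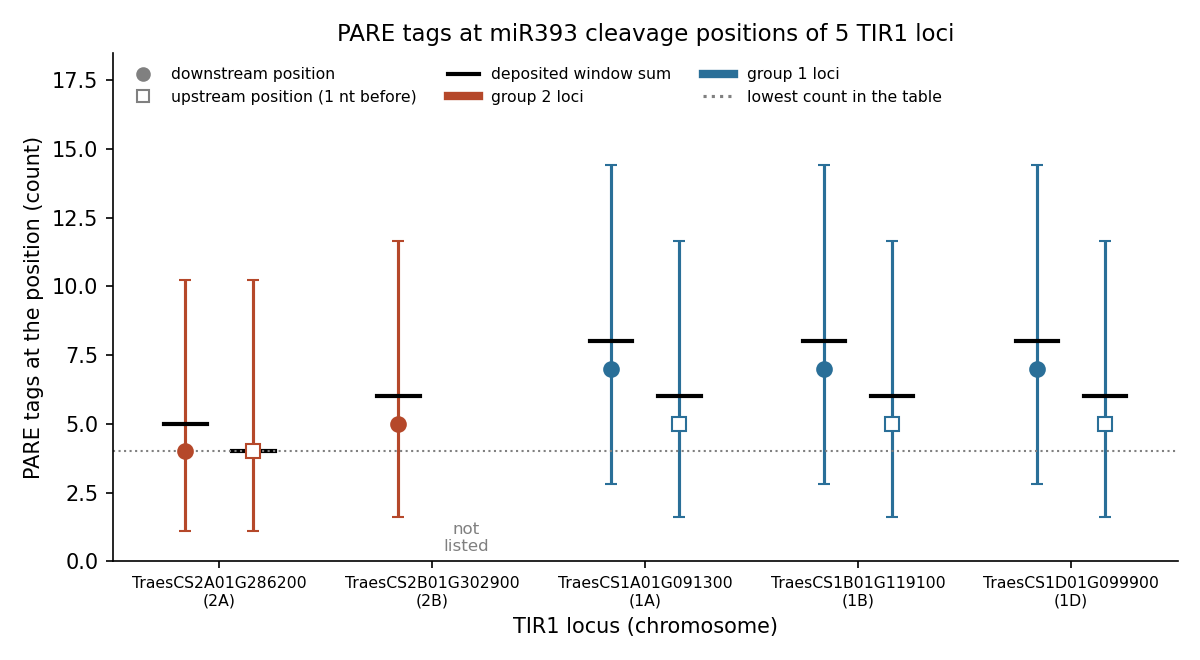
PARE tags at the downstream (filled circle) and upstream (open square) cleavage position of each TIR1 locus, as a count on the y axis; error bars are exact Poisson 95% intervals, black lines the deposited window sum and the dotted line the lowest count in the table, 4. Group 2 loci had 4 or 5 tags and group 1 loci 5 or 7, and all intervals overlap.

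Group 2 loci had fewer tags than the group 1 homoeologues at the downstream position, but by less than counting error allows to be told apart. The ratio was 0.571 for TraesCS2A01G286200 over the group 1 value (4 against 7 tags; exact conditional 95% interval 0.123 to 2.25) and 0.714 for TraesCS2B01G302900 (5 against 7 tags; interval 0.179 to 2.61). At the upstream position the 2A locus had 4 tags and the group 1 loci 5, a ratio of 0.80 (interval 0.159 to 3.72). Between the group 2 loci, 2A had 4 tags and 2B had 5 at the downstream position (ratio 0.80, same interval). Every one of these intervals holds 1 and also differences of several fold, so no difference between the TIR1-like and TIR1 loci was detectable at this depth. At the downstream position ratios above 2.25 for 2A and above 2.61 for 2B lay outside the intervals. Such ratios are not excluded, since the intervals do not allow for the listing limit of 4 tags. Nor do they allow for group 1 copies that may share tags.

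Within a locus, the downstream position had 7 tags and the upstream one 5 in the group 1 homoeologues (ratio 1.4, exact conditional 95% interval 0.382 to 5.59). In TraesCS2A01G286200 both had 4 (ratio 1, interval 0.186 to 5.37). These counts do not add up with their windows. The positions lie 1 nt apart, and together they had 12 tags in group 1 loci and 8 in the 2A locus, yet the windows named as 10 nt around them held 8 and 6 tags in group 1 and 5 and 4 in 2A. This held for 4 of the 4 adjacent positions of TIR1 loci and for 12 of the 20 in the whole table, so counts of neighbouring rows need not rest on the same reads, and the ratios above are those of the deposited rows. With each window raised to hold at least the listed positions 1 nt away, an alternative chosen after seeing the data, 8 of the 9 TIR1 shares fell, to 58.3% at the downstream and 41.7% at the upstream position of group 1 loci and to 50% at both positions of TraesCS2A01G286200. The share at TraesCS2B01G302900, with no listed neighbour, stayed at 83.3%. Listing at adjacent positions was found for 4 of the 5 TIR1 loci, against 3 of 6 squamosa promoter-binding-like loci of miR156 and 0 of 4 homeobox leucine-zipper loci of miR166, with a background of 25.8% of the 62 loci.

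The tags at a position did not depend on the miRNA it was listed under, whereas the deposited p-value did. At all 9 sites the miR393 members had the same tags and window, although tags of other families differed between miRNAs at 3 sites of the table. The p-value was lowest for miR393-6-5p at each of the 9 sites. It was 2.91 to 2.92 times as high for miR393-4-5p as for miR393-6-5p at every site, and 1.54 times as high for miR393-2-5p at the 4 sites where that was listed. In the group 2 loci the p-value for miR393-6-5p was 0.00436 at the downstream and 0.00309 at the upstream position of TraesCS2A01G286200, and 0.00189 at TraesCS2B01G302900. In each group 1 homoeologue (TraesCS1A01G091300, TraesCS1B01G119100 and TraesCS1D01G099900) it was 0.000915 at the downstream and 0.00159 at the upstream position. The highest p-value of the family, 0.0127, belonged to miR393-4-5p at the downstream position of TraesCS2A01G286200, and 21 of the 22 pairs were under 0.01 (background 83.3% of all 239 pairs). With the same 5 of 6 tags, the p-value for miR393-6-5p was 0.00189 at the 2B locus and 0.00159 at the upstream position of the group 1 loci. The p-values thus ranked rows of the same tags by miRNA and transcript, and they are not separate measurements of cleavage.

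**Figure D3:**
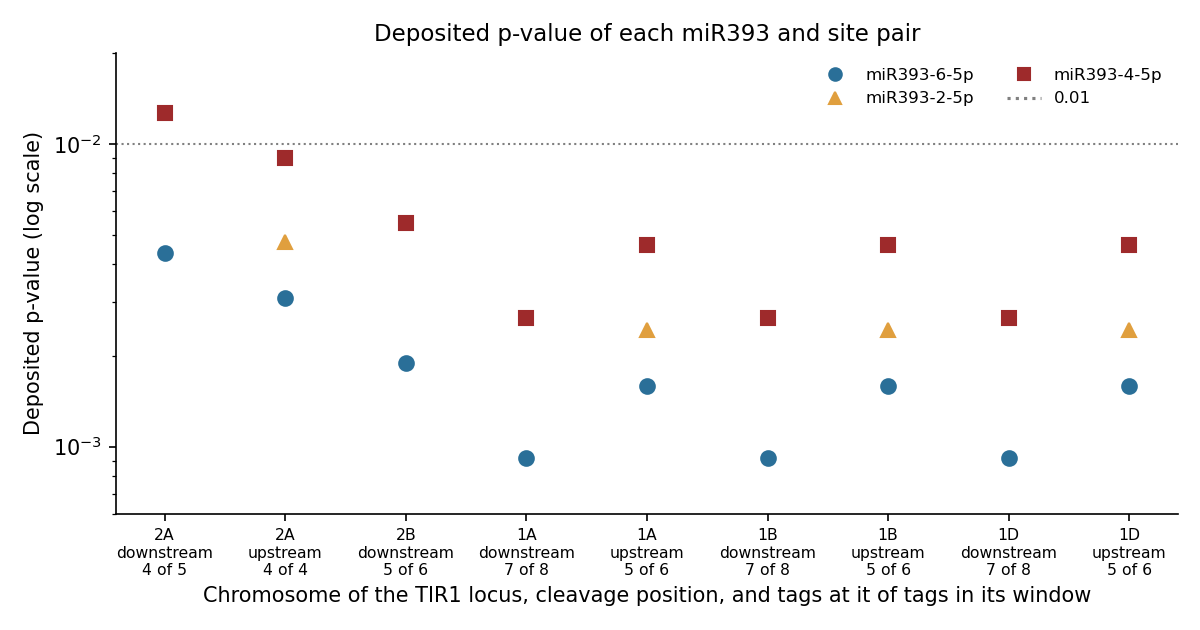
Deposited p-value (y axis, log scale) of each pair of a miR393 member and a cleavage position, with sites along the x axis named by chromosome, position and tags of the window. At each site miR393-6-5p is lowest and miR393-4-5p highest, at 2.91 to 2.92 times its value, and 1 of the 22 points lies above 0.01.

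The penalty for imperfect pairing that the target prediction gave, where 0 is perfect, was the same at all loci, 3.5 under miR393-6-5p and miR393-2-5p and 4.5 under miR393-4-5p, which had 1 unpaired base more. The lowest score per site was therefore 3.5 at all 9 sites, equal to the median of the 92 sites. The targets of miR156 and miR166, both conserved families, had lower penalties, 1 to 2 at the 9 sites in squamosa promoter-binding-like loci, which encode transcription factors of phase change, and 0.5 to 1 at the 4 sites in homeobox leucine-zipper loci, which encode transcription factors of leaf polarity. Tag counts did not follow this order: the median was 5 tags per site for TIR1 (range 4 to 7), 5 for squamosa promoter-binding-like loci (4 to 10) and 4 for homeobox leucine-zipper loci (each at 4).

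Beside all sites of the table, the TIR1 sites had the same median abundance, 5 tags, and their window share was higher or lower depending on how the window was taken. An abundance over 4 was found at 7 of the 9 TIR1 sites (background 65.2% of the 92 sites), and the 2 at exactly 4 tags were both those of TraesCS2A01G286200. As deposited, the tags of a TIR1 site made up 80 to 100% of their window with a median of 83.3%, against a median of 71.4% over the 92 sites, and a share of at least 80% was found at 9 of 9 TIR1 sites with a background of 43.5%. The median was 72.7% at the 9 squamosa promoter-binding-like sites and 83.3% at the 4 homeobox leucine-zipper sites. The group 1 values enter these 9 sites in triplicate, and taking the position of highest abundance per locus left no difference in share, with a median of 87.5% for the 5 TIR1 loci and 87.5% for all 62. The tag medians also varied with the unit. They were 7 for TIR1 against 5 by locus, and 5 against 5 with 1 locus per set of identical copies. By pair they were 5 against 4, and by site at an abundance over 4 they were 5 against 6. With windows raised to hold the listed positions 1 nt away the direction turned. The median was 50% at the TIR1 sites against 57.1% over the 92 sites, and 1 of the 9 TIR1 sites reached 80%, against 33.7% of all sites. A raised window can only lower a share, and 8 of the 9 TIR1 windows grew against 20 of all 92. So the fall was fixed by which positions are listed, and the added tags need not rest on the same reads. Category 0, the most prominent class of peak within a transcript, was given to all 9 TIR1 sites (background 87.0%). In group 1 loci both the position with 7 tags and the adjacent one with 5 had it, so it did not rank positions within a transcript. The lowest p-value was under 0.01 at all 9 TIR1 sites (background 77.2%). It was also under 0.01 at all 9 squamosa promoter-binding-like and all 4 homeobox leucine-zipper sites. These are counts over related loci that share miRNAs, sequence and tags, and no test was made over them.

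**Figure D4:**
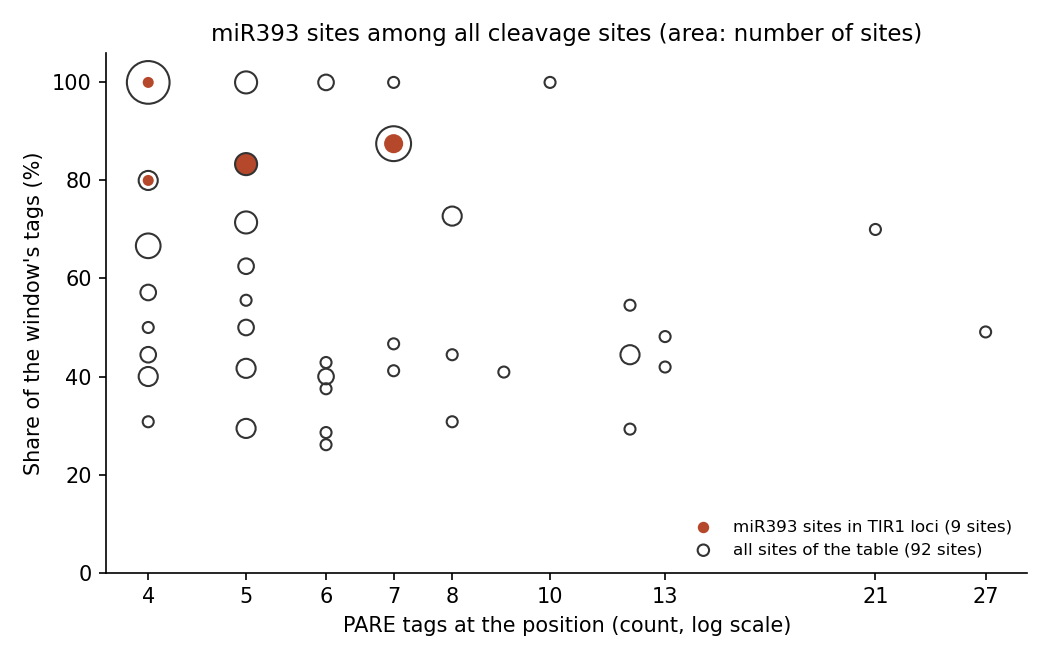
Share of the deposited window sum (y axis, %) against PARE tags at the position (x axis, log scale) for the 92 sites of the table, with circle area proportional to the number of sites and filled circles the 9 miR393 sites in TIR1 loci. The TIR1 sites lie at 4 to 7 tags and at 80 to 100%, whereas the sites above 10 tags, up to 27, are all of other families.

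Other genes of auxin perception, ubiquitination and the supply of the auxin precursor tryptophan were looked for in the 62 loci, and their absence here says nothing of targets outside this table. A list of 13 annotation words (among them auxin, Aux/IAA, SKP1, cullin, ubiquitin, F-box, proteasome and anthranilate) matched 10 of the 62 loci, the 5 TIR1 loci and 5 others. Of the 62 loci 0 were annotated with Aux/IAA, SKP1 or cullin, the repressors and ligase subunits that work with TIR1. The 3 further F-box loci, whose annotation does not say what they bind, were listed under other families. F-box protein TraesCS5B01G013700, at the position of most tags among its 4, had 7 of 17 tags of its window (41.2%, Wilson 95% interval 21.6 to 64.0), F-box family protein TraesCS5B01G063100 had 7 of 15 (46.7%, interval 24.8 to 69.9), and F-box family protein TraesCS6B01G101600 had 4 of 4 (100%, interval 51.0 to 100). These intervals overlap those of the TIR1 sites. Polyubiquitin TraesCSU01G124300 had 4 tags of 5 under miR2012. Anthranilate synthase TraesCS4B01G114400, which makes the first intermediate of tryptophan synthesis, was listed at 4 positions under miR1137 and miR1439. At its position of most tags it had 27 of 55. No member of a family other than miR393 (0 families) was listed at the TIR1 loci.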

How the data were processed

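Per the study's methods, PARE reads of 19 to 21 nt were kept, collapsed to distinct tags and mapped with sPARTA to wheat coding sequences (IWGSC RefSeq v1.0), and its miRferno module predicted the targets. The authors deposited 1 target table for the series, and 0 of its columns give values per library. The deposited abundance is in whole numbers and was taken as a plain count of tags at the position. Whether it was scaled, and whether libraries were summed, is not given in the sources used here. The intervals rest on this reading. The deposited window signal sums the tags of a window (10 nt by its column name). The deposited fraction is abundance over window (largest gap 0.000481). The deposited score is a pairing penalty. The p-value deposited by the authors is that of a site, and its corrected form was not used here. The stated filters kept p-values under 0.05 together with abundances above 4, although the lowest abundance listed was 4.

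A site was a distinct transcript and position, with its row of highest abundance, its lowest score, category and p-value. The 5′ base of each miRNA was set opposite the 3′ base of its listed site, and pairing was read base by base. The 3 miRNA sequences were the same in the study's supplementary list. Tag counts have exact Poisson, shares Wilson and ratios exact conditional (binomial) 95% intervals (Python 3.11.15, scipy 1.17.1, pandas 2.3.3). The Poisson, conditional and Clopper-Pearson intervals were checked on simulated data, and the Wilson interval was not. All 5 loci were named; others were named by words of their annotation. The gene names table used as reference follows assembly v2.1 and held 0 of the 5 TIR1 loci, so names are those of the deposited table. Alternatives were stricter filters on abundance, p-value and category, another row per site, each miRNA or position alone, other counting units and Clopper-Pearson intervals, with windows raised to hold adjacent listed positions added after seeing the data. The members, lists and alternatives were chosen with earlier results of these data known.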

Additional observations from a re-analysis of the deposited data

How the results depend on the processing

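No paired analysis was possible because each value is given once, without library or replicate numbers. For the same reason no library could be left out. At an abundance over 4 there were 17 pairs, 7 sites and 4 TIR1 loci, since TraesCS2A01G286200 dropped out, and at a p-value under 0.01 there were 21 pairs at 9 sites of 5 loci. The median stayed at 5 tags and 83.3% of the deposited window under the filters run for each. The ratio of group 2 to group 1 tags was 0.571 to 0.80 over positions, miRNAs and counting each locus on its own (0.643, exact conditional 95% interval 0.259 to 1.46), and every interval held 1; the last interval is too narrow, since the identical group 1 value enters it in triplicate. The window share of TIR1 sites above the median of the table was 11.9 percentage points by site and by pair, 17.1 at an abundance over 4, 4.17 with 1 locus per set of identical copies and 0 by locus. With windows raised to hold the listed positions 1 nt away, an alternative chosen after seeing the data, it turned to -7.14 points (50% against 57.1%), because 8 of 9 TIR1 windows and 20 of 92 in all grew. The lower bound for 7 of 8 tags was 47.3% by Clopper-Pearson against 52.9% by Wilson. Depth limits every comparison, as counts of 4 to 7 tags have intervals of 1.09 to 14.4.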
